A study of Homo sapiens with 6 samples.

Results

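The collagen genes are the 40 rows, of 23344 in the deposited expression table, whose gene symbol is COL, a type number, the letter A and a chain number. They were measured by RNA sequencing in Huh7, an established human liver cancer cell line of hepatocyte character. One group of 3 libraries (shNC) had received a control lentivirus and is called control here. The other group of 3 (sh2) had received a lentivirus for knockdown of versican V1, an isoform of the matrix proteoglycan encoded by VCAN, and is called knockdown. All the knockdown libraries carry the name of a single hairpin, so effects of that hairpin and of lower versican cannot be told apart. The labels do not say whether replicates were separate cultures, so p-values here reflect how far these libraries scatter, which may be technical. Values are given as FPKM, reads scaled by transcript length and library size, although the table names no unit. Read totals are unknown, and with them the counting error of low values. In bulk RNA, fewer cells expressing a gene and less of its RNA per cell cannot be told apart.

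Collagens are extracellular proteins built from 3 chains wound into a triple helix. Fibril-forming collagens assemble into the banded fibres of connective tissue, and fibril-associated collagens decorate these fibres. Type IV collagen makes the sheet-like network of basement membranes, type VI makes beaded filaments, and type VII anchors epithelia. In the liver, fibrillar collagen is mainly known as a product of activated stellate cells and scar tissue, and type XVIII collagen as a basement membrane product of hepatocytes.

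Markers of the labelled cell type were high. ALB, the albumin gene, lay between 3128.03 and 4006.47 in all 6, and 10 hepatocyte and hepatoma markers summed to 5801 to 7151 in control and 6263 to 8159 in knockdown (APOA1 rose and TTR fell). Of 10 fixed markers of stellate cells and fibroblasts, 9 had a row. LUM, a proteoglycan gene, lay between 147.48 and 182.83, RGS5 between 1.31 and 4.24, and the other 7 at or below 1.01 in every library. Their sum ran from 166 to 188.9 in control and from 151.9 to 176.4 in knockdown. The 2 of 7 endothelial markers with a row summed to at most 0.17. The targeted gene VCAN was at 4.79, 6.24 and 8.10 in control and 1.90, 1.74 and 1.64 in knockdown libraries and fell by 1.40 on the log2 scale (SE 0.19, adjusted p = 0.0103); the table does not separate its isoforms. The share of each library's summed values that came from 13 mitochondrially encoded genes was 16 to 19.2% in control and 23.8 to 31.2% in knockdown.

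A gene counted as detected when 3 or more libraries reached a value of 1. By this rule 20 of the 40 collagen genes were detected, and the other 20 stayed below 1 in every library. The detected genes covered 5 of 11 fibril-forming chains, 5 of 6 type IV chains, 5 of 10 fibril-associated chains, 1 of 5 type VI chains, the type VII chain COL7A1, the multiplexin COL18A1, and both COL26A1 and COL28A1. Nearest to the limit on the inside were COL26A1 and COL4A4, with means over all libraries of 1.14 and 1.41. Nearest on the outside were COL3A1, the second major fibrillar collagen of scar tissue, with a mean of 0.432 and at most 0.76, and COL11A2, a chain of type XI collagen, with a mean of 0.405 and at most 0.83. The short-chain collagens COL8A2 and COL10A1, the transmembrane collagen COL17A1 and the cartilage collagen COL2A1 were at or below 0.25 in every library. COL8A1, COL13A1, COL23A1 and COL25A1 were not analysed here.

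Collagen expression was concentrated in a few chains. COL14A1, a fibril-associated collagen, made up 32.8% of the summed control value of all collagen rows and COL5A2, a chain of type V collagen that helps set fibril diameter, 25.4%. COL18A1 followed with 10.99%, and COL16A1, COL4A5, COL27A1 and COL9A2 with 4.77 to 5.76% each. COL1A1, which with COL1A2 makes type I collagen, the main fibre of scar tissue, supplied 0.324%, and COL1A2 2.14%. In knockdown libraries COL5A2 supplied 27.9% and COL14A1 23.1%, so these chains changed places at the top.

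**Figure D1:**
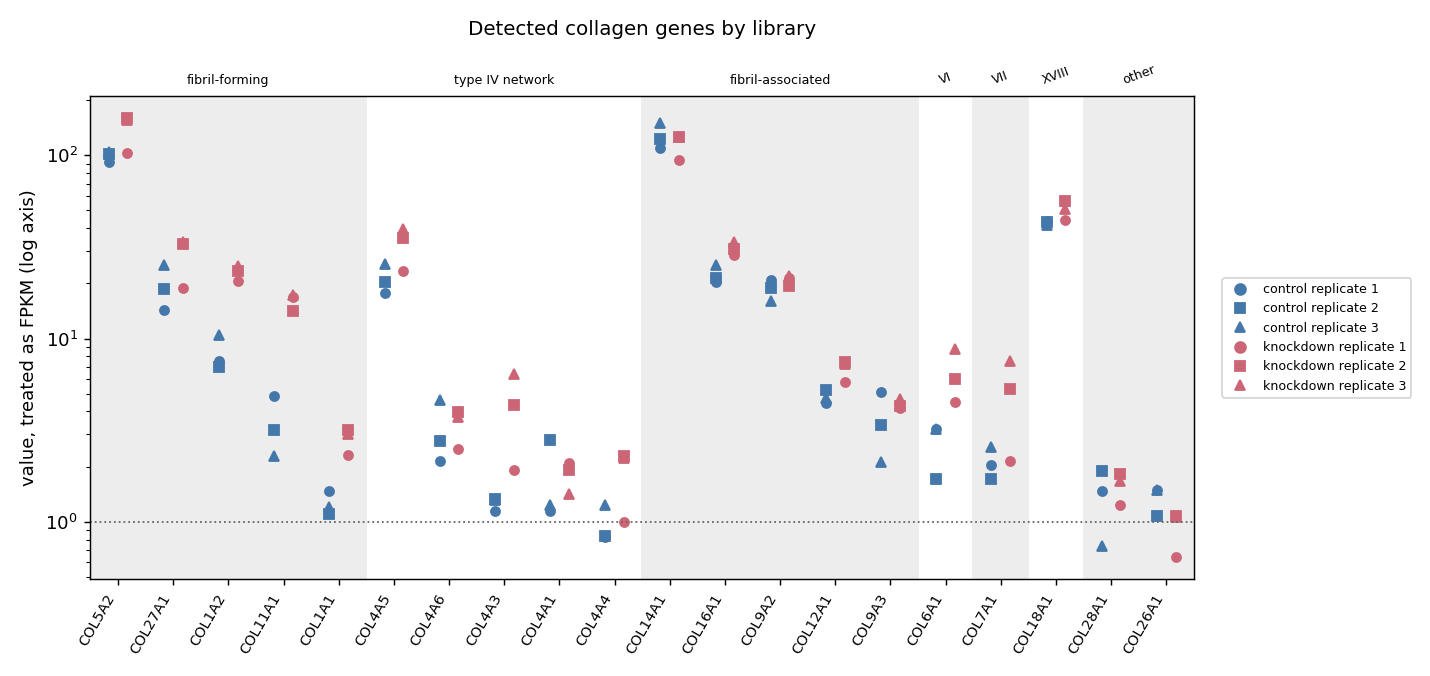
Value of each detected collagen gene (horizontal axis, grouped by class) in every library, treated as FPKM on a logarithmic vertical axis. Blue points are control and red points knockdown libraries, the marker shape gives the replicate, and the dotted line marks the detection value of 1. COL5A2 and COL14A1 stand highest, and the points of COL1A2 and COL11A1 are fully apart between the groups.

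Knockdown libraries had more of 3 fibril-forming chains, COL11A1, COL1A2 and COL1A1, and of the type VI chain COL6A1, and no collagen gene was called lower. Of the 20 detected genes, 4 rose and 0 fell (limma on log2 values, Benjamini-Hochberg adjusted p below 0.05 over all 13696 genes tested). Over all genes tested, 8.08% were called in either direction, 4.15% higher and 3.94% lower. With no adjustment, no collagen gene was lower at p below 0.05 either: the smallest p among those with a negative fold change was 0.1597, for COL26A1. The median log2 fold change was 0.46 for the detected collagen genes and -0.03 for all genes tested, and 18 of 20 collagen genes lay above 0, against 46.5% of all genes tested. Fold changes were taken after adding 1 to each value and then log2, so those of genes with low values come out too small. COL11A1 and COL1A2 were called under every alternative tried, but COL1A1, COL6A1 or both lost the call under others. Only 2 collagen genes rose with the replicate block, with no filter and when any 1 library other than knockdown replicate 1 was left out. A mean value of at least 5 also gave 2, but of only 10 collagen genes tested. COL1A1 and COL6A1 were not tested in that setting. Without knockdown replicate 1, 12 rose. When each library was divided by its sum over the other genes, leaving out mitochondrially encoded ones, the same 4 collagen genes rose and 0 fell, while calls over all genes went from 568 higher and 539 lower to 680 and 223.

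Among the 20 genes, 8 had every knockdown library above every control library, against 14.4% of all genes tested. They were COL11A1, COL1A2, COL1A1, COL6A1, COL4A3, COL12A1, COL16A1 and COL18A1. The reverse, every knockdown library below every control library, held for 0 of 20 collagen genes and for 18.7% of all genes tested. Another 5 genes, COL5A2, COL27A1, COL4A5, COL4A4 and COL7A1, had knockdown replicates 2 and 3 above every control library but not knockdown replicate 1. That arrangement was noticed in these data and held for 12.4% of all genes tested.

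**Figure D2:**
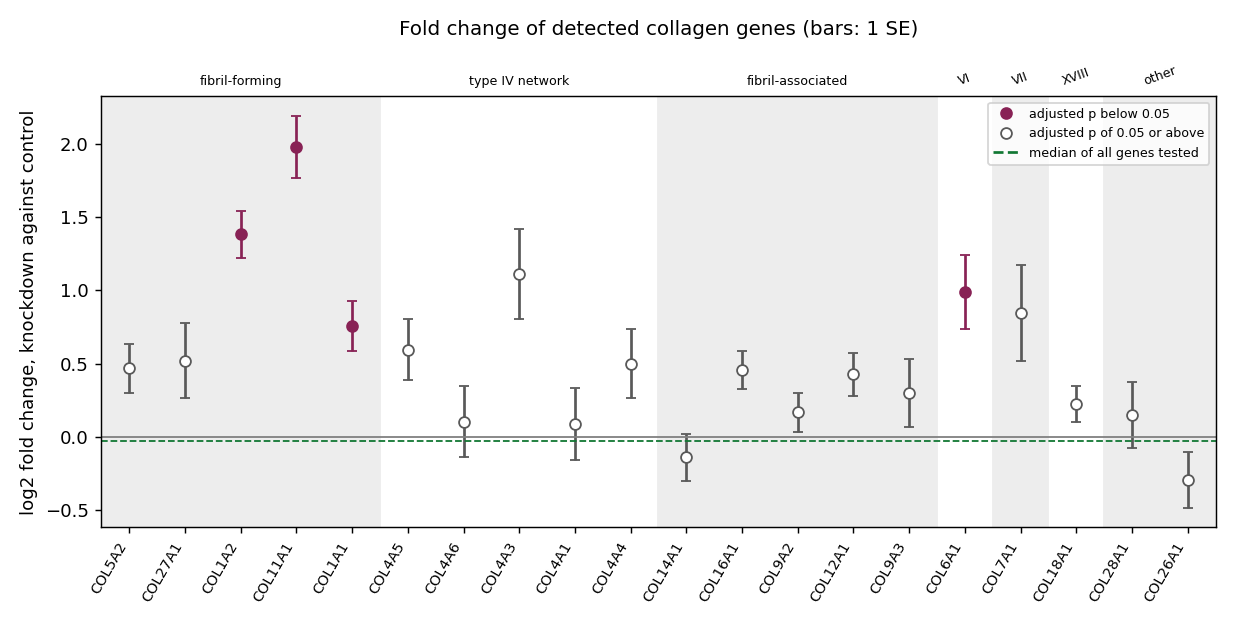
Log2 fold change of each detected collagen gene (vertical axis, knockdown against control, with bars of 1 SE), grouped by class along the horizontal axis. Filled points have an adjusted p below 0.05 and open points do not, and the dashed line is the median of all genes tested, at -0.03. The largest values belong to COL11A1 (1.98) and COL1A2 (1.38), and COL26A1 and COL14A1 lie below 0.

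COL11A1 encodes the first chain of type XI collagen, a minor fibrillar collagen of cartilage that also appears in many carcinomas. Control libraries 1 to 3 gave 4.85, 3.18 and 2.28, and knockdown libraries 1 to 3 gave 16.81, 14.13 and 17.25; values of other genes follow in that order. The lowest knockdown library was thus far above the highest control library. COL11A1 rose with a log2 fold change of 1.98 (SE 0.21, adjusted p = 0.00648), and the knockdown mean was 4.67 times the control mean. It passed in all 13 alternative analyses tried, with adjusted p from 0.00196 to 0.0422.

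COL1A2 encodes the second chain of type I collagen. Its value was 7.56, 7 and 10.41 in the control libraries and 20.73, 23.48 and 25.03 in the knockdown libraries. The groups did not overlap, and the spread within each was small beside the gap. The log2 fold change was 1.38 (SE 0.16, adjusted p = 0.0077), and this gene also passed in all 13 alternatives, with adjusted p up to 0.0469.

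COL1A1, the partner of COL1A2, was much lower in level. It had 1.48, 1.1 and 1.2 in control and 2.32, 3.15 and 3.00 in knockdown libraries, again without overlap. It rose by 0.76 on the log2 scale (SE 0.17, adjusted p = 0.0362), but passed in only 5 of 12 alternatives, and lost the call whenever any library other than knockdown replicate 1 was left out (adjusted p from 0.0758 to 0.133). Type I collagen is usually a trimer with more COL1A1 than COL1A2 chains. In these libraries the COL1A2 transcript was 5.11 to 8.68 times the COL1A1 transcript in control and 7.45 to 8.93 times in knockdown (means 6.72 ± 1.81 and 8.24 ± 0.746, SD, n = 3). That ratio did not differ beyond the spread of the libraries (exact permutation test, two-sided, p = 0.3, adjusted over 2 ratios p = 0.6). The smallest p that 3 libraries against 3 allow is 0.1.

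COL5A2 was the most abundant fibril-forming chain. Its control values were 91.49, 101.63 and 103.79, and its knockdown values 103.41, 159.01 and 155.89. Knockdown replicate 1 lay inside the control range and the others well above it. The gene did not pass (log2 fold change 0.47, SE 0.17, adjusted p = 0.115), and without knockdown replicate 1 its adjusted p was 0.00405. COL5A1, the usual partner of COL5A2 in type V collagen, was at or below 0.14 in every library. Chains of types V and XI are known to mix in 1 trimer, and COL11A1 was the only other chain of these types that was detected. The COL5A2 value was 18.9 to 45.5 times that of COL11A1 in control libraries and 6.15 to 11.2 times in knockdown libraries.

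COL27A1, a fibrillar collagen of cartilage with a shortened helix, had 14.36, 18.74 and 25.26 in control and 18.89, 32.89 and 33.74 in knockdown libraries. It did not pass (0.52, SE 0.26, adjusted p = 0.218). As with COL5A2, knockdown replicate 1 lay within the control range. The sum of all 11 fibril-forming rows was 120.4, 132.3 and 143.9 in control and 163.5, 234 and 236.8 in knockdown, so that every knockdown library was higher (exact permutation test, two-sided, p = 0.1, the smallest possible; adjusted over 8 sums p = 0.267). COL5A2, which was not called, averaged 98.97 of a mean sum of 132.2 in control and 139.4 of 211.5 in knockdown. The knockdown mean of this sum was 1.6 times the control mean. The type VI and multiplexin sums were also higher in every knockdown library (2.174 and 1.175 times, with the same p-values). Each of these sums holds a single detected gene, COL6A1 or COL18A1. The multiplexin groups were barely apart, with a highest control sum of 43.85 and a lowest knockdown sum of 44.11. The type IV sum was 1.556 times as high, with overlap (exact permutation test, p = 0.2, adjusted p = 0.267). Of the 5 detected fibril-forming chains 3 rose, with a class median log2 fold change of 0.76.

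None of the 5 detected type IV chains passed the test. COL4A3, a chain of the basement membrane of kidney glomerulus and lung, had 1.14, 1.33 and 1.31 in control and 1.92, 4.35 and 6.41 in knockdown libraries. The groups did not overlap, but the knockdown libraries differed widely among themselves (log2 fold change 1.11, SE 0.31, adjusted p = 0.058). It passed in 1 of 12 alternatives, without knockdown replicate 1 (adjusted p = 0.00231). Its antisense neighbour AC097662.2 lay between 0.31 and 1.57, and whether reads were counted by strand is not stated.

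COL4A4 pairs with COL4A3 and COL4A5 in 1 trimer, and its gene lies head to head with COL4A3. It had 0.83, 0.84 and 1.24 in control and 1.00, 2.30 and 2.22 in knockdown libraries (0.50, SE 0.24, adjusted p = 0.198). COL4A5, the most abundant type IV chain, had 17.74, 20.32 and 25.45 in control and 23.51, 35.57 and 39.59 in knockdown libraries (0.59, SE 0.21, adjusted p = 0.104). All these chains of the COL4A3-COL4A4-COL4A5 trimer were highest in knockdown replicates 2 and 3; replicate 1 lay within the control range for COL4A4 and COL4A5 and above it for COL4A3. COL4A6, which forms a different trimer with COL4A5, had 2.16 to 4.62 in control and 2.51 to 3.97 in knockdown libraries (0.10, SE 0.24, adjusted p = 0.817).

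COL4A1 and COL4A2 encode the chains of the type IV trimer found in nearly all basement membranes, and their genes also lie head to head. COL4A1 was detected at 1.14, 2.80 and 1.24 in control and 2.09, 1.92 and 1.42 in knockdown libraries, which overlap (0.09, SE 0.25, adjusted p = 0.848). COL4A2 was near 0, at 0.01, 0.42 and 0.02 in control and 0.01, 0.05 and 0.25 in knockdown libraries. The COL4A2 value was at most 0.176 of the COL4A1 value in any library, and the mean ratio was 0.0583 in control and 0.0690 in knockdown (exact permutation test, two-sided, p = 0.7, adjusted over 2 ratios p = 0.7). COL4A2 varied more within each group than between the groups.

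The sequences between or before the starts of these genes show how close the partners lie and are printed with that of COL11A1, the collagen with the largest change. They come from a set of promoters of RefSeq genes on build GRCh38.p14. The set used here held a promoter for 14 of the 20 detected collagen genes. COL14A1, COL1A1, COL1A2, COL5A2, COL6A1 and COL9A3 had no entry in that set. Capitals mark CCAAT, the box bound by the factor NF-Y, and GGGCGG, the GC box bound by SP1, each on either strand (so also ATTGG and CCGCCC). The first 3 are the 250 bases before the start of the gene on its own strand, and the last is the whole stretch of 126 bases between the starts of COL4A1 and COL4A2, written on the plus strand. COL11A1 is at chr1:103108523-103108772 (minus strand), COL4A3 at chr2:227164374-227164623 (plus strand), COL4A4 at chr2:227164206-227164455 (minus strand) and the stretch between COL4A1 and COL4A2 at chr13:110307158-110307283.
COL11A1: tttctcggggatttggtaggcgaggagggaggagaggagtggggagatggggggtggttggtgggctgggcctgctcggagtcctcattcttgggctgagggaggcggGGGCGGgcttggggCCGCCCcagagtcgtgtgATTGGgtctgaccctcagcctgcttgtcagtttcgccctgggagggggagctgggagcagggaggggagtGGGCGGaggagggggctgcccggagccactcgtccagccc
COL4A3: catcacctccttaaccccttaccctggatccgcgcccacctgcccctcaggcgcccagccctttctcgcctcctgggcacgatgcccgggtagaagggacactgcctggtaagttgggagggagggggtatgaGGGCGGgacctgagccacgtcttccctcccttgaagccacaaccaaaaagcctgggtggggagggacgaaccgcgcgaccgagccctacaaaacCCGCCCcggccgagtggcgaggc
COL4A4: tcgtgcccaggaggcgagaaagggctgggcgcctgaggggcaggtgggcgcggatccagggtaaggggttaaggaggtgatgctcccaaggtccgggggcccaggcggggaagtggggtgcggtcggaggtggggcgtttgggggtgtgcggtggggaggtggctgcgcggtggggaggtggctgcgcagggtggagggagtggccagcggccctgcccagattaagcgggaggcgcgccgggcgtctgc
COL4A1-COL4A2: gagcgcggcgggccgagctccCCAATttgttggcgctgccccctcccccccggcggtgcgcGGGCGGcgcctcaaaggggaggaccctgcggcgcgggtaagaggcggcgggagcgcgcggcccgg

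The starts of COL4A3 and COL4A4 lie 418 bases apart, so their printed windows share a stretch in opposite orientation. The COL11A1 window held 3 GC boxes and 1 CCAAT box, the COL4A3 window 2 GC boxes and no CCAAT box, and the COL4A4 window neither. Over the 14 detected collagen genes with an entry, 10 had a GC box and 5 a CCAAT box in the 250 bases before a start, against 42.6% and 32.0% of 35116 such windows of all genes. TATAAA was present in 2 of 14 (COL18A1 and COL7A1), against 10.7%, CAGACA, a motif bound by SMAD factors, in 2 (COL4A6 and COL7A1), against 13.6%, and TGANTCA, the AP-1 site, in 0, against 6.57%. COL4A6 and COL18A1 have several starts in the set and were counted if any window held the motif. Counts of genes are thus set here against shares of single windows, which are unlike units. Of the 4 collagen genes that rose, only COL11A1 had an entry. Motifs were sought on both strands, and a match describes the letters alone.

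**Figure D3:**
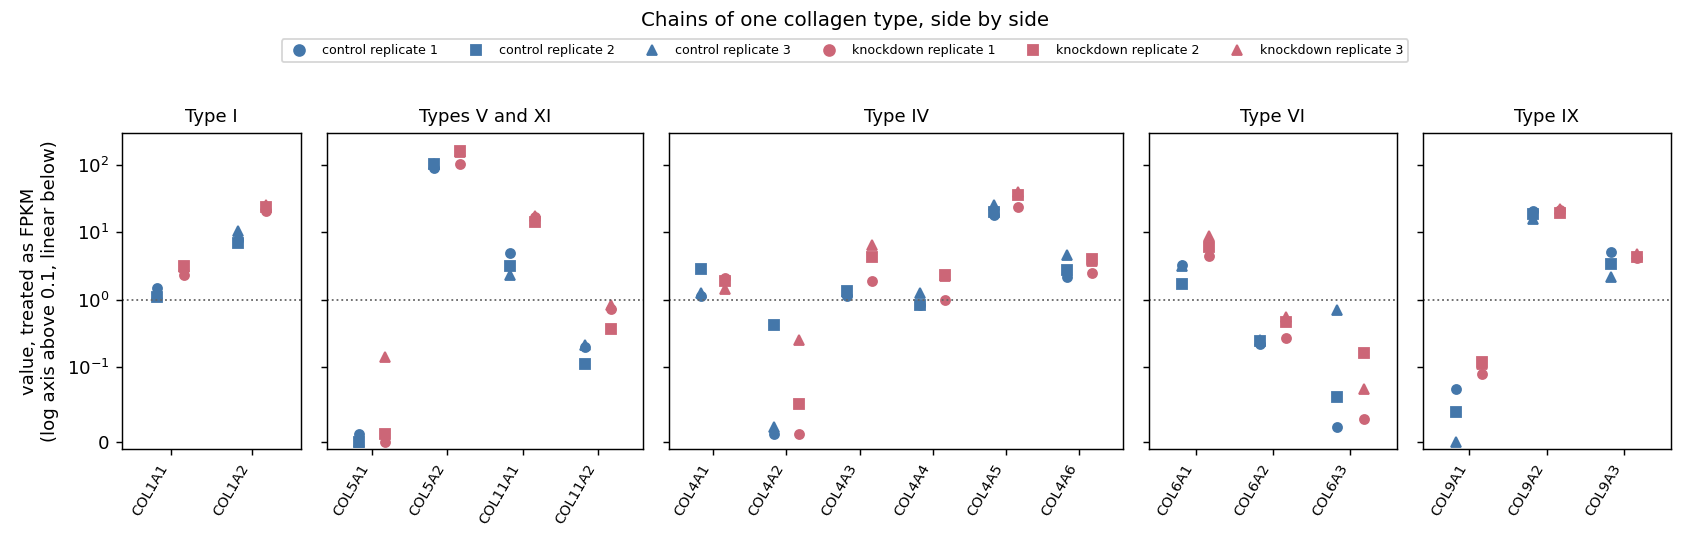
Value of each chain (treated as FPKM, vertical axis logarithmic above 0.1 and linear below) in every library, for collagen types whose trimers combine several chains. Blue points are control and red points knockdown libraries, with the marker shape for the replicate and a dotted line at the detection value of 1. COL1A2 stands above COL1A1 and COL5A2 above COL11A1 in every library, while COL5A1, COL4A2, COL6A2 and COL9A1 stay below 1.

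COL6A1 encodes 1 of the 3 chains of the usual type VI trimer. It had 3.21, 1.72 and 3.20 in control and 4.51, 6.04 and 8.72 in knockdown libraries, without overlap. It rose by 0.99 on the log2 scale (SE 0.25, adjusted p = 0.0487), just inside the threshold. The call held in 2 of 12 alternatives, with adjusted p up to 0.159. Its partners were not detected: COL6A2 was at or below 0.56 and COL6A3 at or below 0.69. In COL6A2 all knockdown libraries (0.27, 0.47 and 0.56) were above all control libraries (0.22, 0.24 and 0.25), which was not tested at these levels. The same arrangement was seen in COL11A2, COL17A1 and COL9A1, also undetected, with values of at most 0.83. How often undetected rows of other genes show it was not counted, so nothing is read from it. The groups of COL6A3 overlapped, with a mean of 0.257 in control and 0.0867 in knockdown.

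COL7A1, the chain of anchoring fibrils, had 2.04, 1.71 and 2.57 in control and 2.15, 5.33 and 7.54 in knockdown libraries. Knockdown replicate 1 lay within the control range, and replicates 2 and 3 were above it. The test across all libraries did not call it (0.84, SE 0.33, adjusted p = 0.137). The test without knockdown replicate 1, the lowest knockdown library for COL7A1, did (adjusted p = 0.00432). In that setting 12% of all genes tested rose.

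None of the 5 detected fibril-associated chains passed the test. COL14A1, the most abundant collagen in control libraries, had 109.24, 122.63 and 150.41 in control and 94.88, 125.47 and 126.22 in knockdown libraries, which overlap broadly (-0.14, SE 0.16, adjusted p = 0.599). COL16A1, found at the edges of fibrils in many tissues, had 20.35, 21.54 and 25.36 in control and 28.63, 30.77 and 33.76 in knockdown libraries. The groups of COL16A1 were apart, but it did not pass (0.46, SE 0.13, adjusted p = 0.0619); it did with quantile normalization (adjusted p = 0.04996) and without knockdown replicate 1 (0.0242). COL12A1, which links fibrils to the surrounding matrix, lay at 4.46 to 5.23 in control and 5.79 to 7.43 in knockdown libraries (0.43, SE 0.15, adjusted p = 0.103).

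Type IX collagen combines COL9A1, COL9A2 and COL9A3. COL9A2 had 18.6 ± 2.52 in control and 20.8 ± 1.30 in knockdown libraries (SD, n = 3; adjusted p = 0.448) and COL9A3 3.54 ± 1.497 and 4.38 ± 0.268 (adjusted p = 0.430), while COL9A1 was at or below 0.12. The differences of both detected chains were within the spread of the control libraries. COL9A3 overlaps TCFL5 on the opposite strand, which had 4.61 to 5.13 in control and 3.00 to 3.29 in knockdown libraries. The summed fibril-associated rows averaged 177.3 ± 19.8 in control and 179.2 ± 20.9 in knockdown (SD, n = 3; exact permutation test, two-sided, p = 1).

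COL18A1, the source of the fragment endostatin, had 43.72, 43.04 and 41.55 in control and 44.10, 56.19 and 50.66 in knockdown libraries. The lowest knockdown library was barely above the highest control library (0.22, SE 0.12, adjusted p = 0.258). SLC19A1, which overlaps it on the opposite strand, lay between 5.46 and 12.52. COL26A1 was the collagen with the lowest fold change, at 1.35 ± 0.245 among control and 0.923 ± 0.245 among knockdown libraries (SD, n = 3; -0.29, SE 0.19, adjusted p = 0.342), and COL28A1 had 0.74 to 1.89 in control and 1.23 to 1.82 in knockdown libraries.

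Over all 40 rows the summed collagen value was 356.6, 382.9 and 427.5 in control and 403.3, 541.6 and 555.2 in knockdown libraries. Knockdown replicate 1 lay between control replicates 2 and 3. The knockdown mean was 1.29 times the control mean (exact permutation test, two-sided, p = 0.2, adjusted over 8 sums p = 0.267). Without COL14A1, the most abundant row, the knockdown mean was 1.47 times the control mean (exact permutation test, two-sided, p = 0.1, not adjusted). COL14A1 had a negative log2 fold change (-0.14), so leaving it out raises this quotient.

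Knockdown replicate 1 differed from its 2 companions across the detected collagen genes. Against the control mean, their median log2 difference was 0.18 in knockdown replicate 1, 0.61 in replicate 2 and 0.61 in replicate 3. Without knockdown replicate 1, 12 of 20 collagen genes rose and 0 fell, while 12.0% of all genes tested rose. Where replicate 1 was the lowest knockdown library, leaving it out raises the fold change, so such calls add no separate support. Without any 1 of the other 5 libraries, 2 collagen genes rose, COL11A1 and COL1A2, and 0.35 to 1.23% of all genes tested did. The mitochondrial share was 23.8% in knockdown replicate 1 and 27 and 31.2% in the others; its part in this difference between knockdown libraries was not tested. Leukocyte transcripts stood out in knockdown replicate 2, where S100A8 had 17.9 and NKG7 5.54, while no other library exceeded 0 for S100A8 or 0.1 for NKG7. In the same library S100A9 had 30.57 (at most 4.13 elsewhere), LAPTM5 3.65 (at most 0.56), PTPRC 1.96 (at most 0.16) and CD3E 0.43 (at most 0.07). The 10 leukocyte markers, all in the table, summed to 73.9 to 91.2 in control and 107 to 202.7 in knockdown, and LYZ rose. Outside knockdown replicate 2 most of that sum came from CD14 and LYZ. CD14 had 45.64 to 70.15 in control and 57.06 and 65.23 in knockdown replicates 1 and 3, and was not called. LYZ had 18.3 to 24.84 in control and 44.53 and 37.79 in those 2 replicates. Without knockdown replicate 2, COL11A1 and COL1A2 rose and COL1A1 and COL6A1 did not pass (adjusted p = 0.129 and 0.123).

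**Figure D4:**
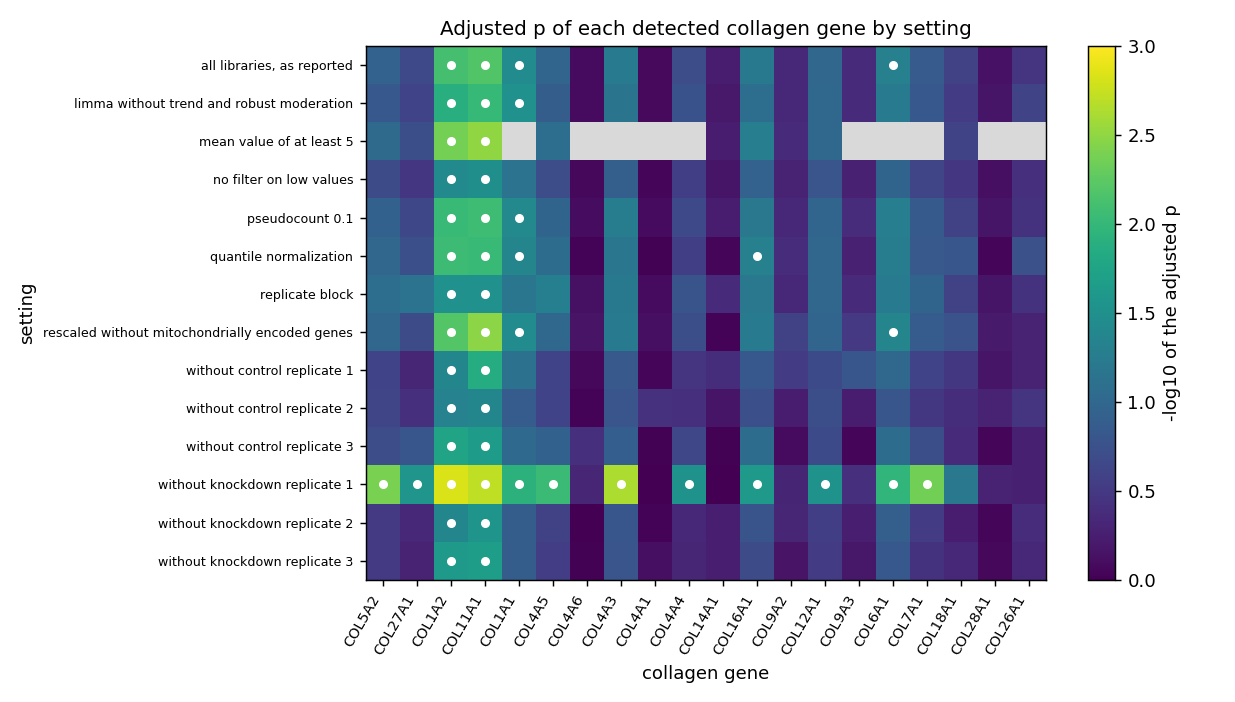
Adjusted p of each detected collagen gene (horizontal axis) under each analysis setting (vertical axis), coloured by -log10, with a white dot where the adjusted p is below 0.05 and grey where a gene was not tested. COL11A1 and COL1A2 carry a dot in every row, and without knockdown replicate 1 there are 12 dots.

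Next come the genes that fold, modify and export collagen chains in the secretory pathway. Of 20 tested among 22 listed, 1 rose and 1 fell, which is near the 4.15% and 3.94% over all genes tested. Their median log2 fold change was 0.11, against -0.03 for all genes tested. PLOD2, a lysyl hydroxylase that prepares collagen for stable cross-links, had 60.74, 51.6 and 57.66 in control and 79.12, 99.43 and 107.8 in knockdown libraries and rose by 0.73 (SE 0.14, adjusted p = 0.023). TMEM38B, an ion channel of the endoplasmic reticulum needed for normal collagen processing, was 23.0 ± 0.445 in the control and 15.2 ± 1.08 in the knockdown libraries (SD, n = 3) and fell (-0.57, SE 0.11, adjusted p = 0.0277). CTAGE5, which helps export large cargo such as collagen, and FKBP10, a collagen chaperone, missed the threshold at log2 fold changes of 0.47 and 0.42 (adjusted p = 0.0527 and 0.063).

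Among 8 tested genes of procollagen cleavage and cross-linking, of 13 listed, 2 rose and 0 fell, where 4.15% and 3.94% of all genes tested did. Their median log2 fold change was 0.46, against -0.03 for all genes tested, and a list of 8 is too short to read a share from. BMP1, the protease that removes the carboxy-terminal propeptide of fibrillar procollagens, had 7.98, 7.28 and 9.85 in control and 12.21, 17.56 and 17.76 in knockdown libraries (0.84, SE 0.18, adjusted p = 0.0317). LOXL4, a lysyl oxidase family member that cross-links matrix proteins, had 47.58, 38.56 and 33.79 in control and 60.88, 65.77 and 69.24 in knockdown libraries (0.71, SE 0.14, adjusted p = 0.0274). Both had every knockdown library above every control library, as did 14.4% of all genes tested. PCOLCE, an enhancer of procollagen cleavage, and TLL1, a protease related to BMP1, missed the threshold at 0.76 and 0.41 on the log2 scale (adjusted p = 0.086 and 0.143).

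Of 4 tested collagen receptor genes, of 10 listed, none passed. The integrin genes ITGA1, ITGB1 and ITGA2 had log2 fold changes of 0.32, 0.25 and -0.39 (adjusted p = 0.169, 0.218 and 0.258) and the receptor kinase gene DDR1 0.23 (adjusted p = 0.323). Before adjustment ITGA1 alone was under 0.05 in limma. Among collagen-degrading proteases MMP14 and CTSK were tested, of 8 listed, and neither passed, with log2 fold changes of -0.17 and 0.22 (limma adjusted p = 0.436 and 0.583; neither was under 0.05 before adjustment). Of the 8 proteoglycans that organise fibrils only LUM was tested, at 169.6 ± 11.4 in control and 162.3 ± 13.3 in knockdown (SD, n = 3; adjusted p = 0.738).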

How the data were processed

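The authors deposited 1 table with a human Ensembl gene ID, a symbol and 1 value per library. The deposited values are treated as FPKM: they are not whole and sum to 851418 to 975501 per library. They could also be TPM; absolute depth is unknown. Per the submitters' processing notes, Trimmomatic 0.36, Bowtie2 2.2.6 and RSEM 1.1.17 were among the tools, with their steps not given, and the build was mm10, a mouse build, although the IDs are human; no coordinate of the authors is used. All 40 collagen IDs were found in GENCODE release 29, which served to find overlapping genes.

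Groups and replicate numbers came from the sample titles. The 13696 genes reaching 1 in 3 or more libraries were tested as log2(value + 1) with limma 3.58.1 in R 4.3.3 (mean-variance trend, robust moderation, two-sided), with Benjamini-Hochberg adjustment over all of them. The fit was tested on simulated data. Sums and ratios per library were compared with an exact permutation test. Collagen classes were assigned from textbook knowledge; the members, classes and further lists were chosen with earlier results of these data known. All detected collagen genes, VCAN, and of each further list the genes called and up to 4 with the smallest p were described, apart from marker lists, given by their range. The alternatives were another pseudocount (0.1), no filter, a mean value of at least 5, quantile normalization, a rescaling without mitochondrially encoded genes, plain moderation, the replicate number as a block and each library left out.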

Additional observations from a re-analysis of the deposited data

How the results depend on the processing

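The number of collagen genes called higher was 4 with all libraries and 2 under each of 3 settings, a mean value of at least 5, no low-value filter, and the replicate block, and it ran from 2 to 12 when 1 library was left out. The mean value of at least 5 left 10 collagen genes to test, without COL1A1 and COL6A1. The number called higher was 3 with plain moderation and with a pseudocount of 0.1, where COL6A1 lost the call. Quantile normalization gave 4, with COL16A1 in place of COL6A1. No alternative called a collagen gene lower. Whether same-numbered libraries pair cannot be settled from 3 libraries per group. Their deviations from the group means correlated at 0.053, 0.105 and 0.135 over 13696 genes, and those of differently numbered libraries at -0.210 to 0.094. Replicates 2 and 3 of both groups correlated best with their own number, and replicate 1 of either group did not. Over all genes, 1107 were called, against 727 with plain moderation, 217 with no filter and 54 to 3342 with 1 library left out. The collagen median of 0.46 was 0.12 with no filter, which adds 20 rows below 1. With 1 library left out, the log2 fold change ran from -0.059 to 0.307 for COL28A1, from -0.062 to 0.352 for COL4A1 and from -0.079 to 0.336 for COL4A6, none called, and the knockdown to control quotient of the ratio of COL4A2 to COL4A1 from 0.264 to 5.54. The cause of these shifts was not tested. Of 250 values of single collagen genes under alternatives, 220 kept direction and side of the threshold, 17 lost the call, 9 gained it and 4 changed sign. With 3 libraries per group and unknown depth, a change that was not called may be too small to be seen here, and exact tests cannot go below 0.1.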
